A study of Rattus norvegicus with 6 samples.

Results

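The core of the circadian clock was examined in the livers of faecal microbiota transplantation (FMT) recipient rats through the 8 genes that encode its activators, Arntl, Clock and Npas2, and its repressors, Per1, Per2, Per3, Cry1 and Cry2. They were taken by gene name from the 30957 genes of the expression table, in which each name has 1 row, and all 8 passed the filter for low counts. The set was chosen with the difference between the groups already known for these genes, and that difference is therefore given as a description: its values, errors and calls are no evidence for the set. The RNA came from the livers of 3 t-PBS and 3 t-DHEA recipients, all female Sprague Dawley rats, bought at 3 weeks of age. Both groups first had an antibiotic cocktail of ampicillin, neomycin, metronidazole and vancomycin in the drinking water, and then a daily gavage of faecal microbiota for 14 days. The donors of the t-PBS group had been injected with phosphate buffer saline (PBS) and those of the t-DHEA group with dehydroepiandrosterone (DHEA), an androgen precursor used to model polycystic ovary syndrome; the recipients were not injected. Donor pellets were pooled, so the livers of a group shared their inoculum. The rats lived under a cycle of light and dark, and the hour at which each liver was taken is not given in the sources used here.

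In mammals the clock is a feedback loop of transcription. ARNTL (BMAL1) pairs with CLOCK, or with its relative NPAS2, and the pair binds E-box sequences and switches on the Per and Cry genes, whose proteins return to the nucleus and hold the activators back. Joined loops run through the nuclear receptors REV-ERB (Nr1d1, Nr1d2) and ROR, which act on Arntl, and through the D-box factors DBP, TEF, HLF and NFIL3, which act on Per genes. In the liver the transcripts of most of these genes rise and fall over the day, Arntl and Npas2 in nearly opposite phase to the Per genes, and the loop times genes of bile acid, glucose and lipid metabolism.

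The promoters of the members were read from RefSeq (build GRCr8, from 250 bases before to 50 bases after the start of transcription) and searched on both strands for the elements of these loops. They were the E-box CACGTG, its variant CACGTT, the D-box TTANGTAA, the cyclic AMP element TGACGTCA and the core of the ROR and REV-ERB element, TAGGTCA or TGGGTCA. No motif overlapped another in these windows. A promoter was found for 7 of the 8 members, Clock having 2 windows, and none was found for Cry1. The promoters shown are those of the 3 members that hold an element and that of Per3, the member with the largest difference between the groups; capitals mark the elements, and the lower-case window of Per3 holds none.
Arntl, chr1:176766078-176766377, plus strand: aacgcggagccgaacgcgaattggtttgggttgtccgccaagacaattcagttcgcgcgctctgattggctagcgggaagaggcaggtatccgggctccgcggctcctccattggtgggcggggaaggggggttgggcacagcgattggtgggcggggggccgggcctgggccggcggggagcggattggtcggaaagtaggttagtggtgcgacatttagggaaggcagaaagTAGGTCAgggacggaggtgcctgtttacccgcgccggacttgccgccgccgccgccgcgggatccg
Per2, chr9:99496944-99497243, minus strand: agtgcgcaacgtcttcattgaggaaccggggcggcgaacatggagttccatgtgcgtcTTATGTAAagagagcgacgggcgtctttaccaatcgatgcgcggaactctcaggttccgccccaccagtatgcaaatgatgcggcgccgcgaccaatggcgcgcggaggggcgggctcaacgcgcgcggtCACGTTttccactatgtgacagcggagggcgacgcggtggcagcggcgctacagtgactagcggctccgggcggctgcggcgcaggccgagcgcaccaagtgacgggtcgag
Cry2, chr3:98860388-98860687, minus strand: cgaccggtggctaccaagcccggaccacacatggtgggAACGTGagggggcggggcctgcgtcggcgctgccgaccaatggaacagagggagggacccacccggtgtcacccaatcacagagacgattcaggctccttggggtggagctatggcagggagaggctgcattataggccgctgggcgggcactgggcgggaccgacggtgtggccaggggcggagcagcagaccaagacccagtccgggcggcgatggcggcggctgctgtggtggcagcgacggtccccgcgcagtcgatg
Per3, chr5:166777751-166778050, minus strand: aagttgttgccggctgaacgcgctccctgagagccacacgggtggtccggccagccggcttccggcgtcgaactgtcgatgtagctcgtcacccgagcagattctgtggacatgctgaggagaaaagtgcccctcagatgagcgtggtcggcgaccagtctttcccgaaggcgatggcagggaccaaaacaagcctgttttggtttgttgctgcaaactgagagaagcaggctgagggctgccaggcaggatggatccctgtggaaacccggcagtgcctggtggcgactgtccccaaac
In the Arntl window the capitals are the ROR and REV-ERB core, which begins 16 bases before the start. In that of Per2 they are a D-box, 192 bases before the start, and a CACGTT variant, 62 bases before it. That of Cry2 holds the variant on the opposite strand, 212 bases before the start. Among all 33469 windows of this length in the RefSeq table, 6.6% held the ROR and REV-ERB core, 2.24% a D-box, 4.83% the CACGTT variant, 6.42% the E-box and 1.83% the cyclic AMP element. Neither the E-box nor the cyclic AMP element was found in a member's window. Among 31 other genes with a promoter in the table, clock genes together with the outputs Ccrn4l and Por, 7 held the E-box: Nr1d1, Tef, Bhlhe40, Bhlhe41, Ciart, Gsk3b and Sirt1. Such a match is only a match of letters within 300 bases, and the windows lie on another build than the expression table, which uses Rnor_6.0.

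The 8 members were expressed in every liver, with between 70 and 663 counts. The livers had 12348511 to 14316886 counts on genes (median 13160427.5). Levels of different genes were compared as FPKM, which allow for transcript length. In the t-PBS livers, Cry2 and Arntl led with 10.6 ± 1.77 and 10.4 ± 1.78 FPKM (SD, n = 3), and their ranges overlapped. Npas2 came next at 7.23 ± 1.18 FPKM (SD, n = 3), below every value of Arntl. Per1, Cry1, Per3 and Clock followed between 2.92 and 2.27 FPKM, each overlapping the next. Per2 was the lowest at 1.53 ± 0.0985 FPKM (SD, n = 3), under every value of Clock. In the t-DHEA livers Cry2 stood alone at 11.9 ± 1.33 FPKM (SD, n = 3), and the order below it was different. Npas2, Arntl and Per3 lay together at 5.66 ± 1.11, 5.56 ± 1.65 and 5.10 ± 1.71 FPKM (SD, n = 3), with overlapping ranges. By their means, Per1, Per2 and Cry1 followed at 3.72, 2.67 and 2.43 FPKM, each overlapping the next. Clock had the lowest mean at 1.56 ± 0.182 FPKM (SD, n = 3), under every value of Per2 and Cry1. The place of Per1 was not firm, as its SD was 2.23 FPKM (n = 3). It ran from 1.28 to 5.65 FPKM, overlapping Npas2, Arntl and Per3 above and Clock below. In t-DHEA rat 2 Per1 was lower than Clock. The FPKM ratio of Arntl to Clock was 4.78 ± 0.816 in t-PBS and 3.68 ± 1.58 in t-DHEA livers (SD, n = 3). That of Cry1 to Cry2 was 0.255 ± 0.0828 in t-PBS and 0.206 ± 0.0260 in t-DHEA livers (SD, n = 3). The groups overlapped for both ratios.

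Compared with t-PBS livers, t-DHEA livers had less Arntl and more Per2 and Per3, without overlap between the groups. The groups overlapped for the other 5 members, among which the log2 fold change was negative for Clock, Npas2 and Cry1 and positive for Per1 and Cry2. The median log2 fold change was -0.51 for the activators and 0.38 for the repressors, against 0.0013 over the 12210 genes tested, of which 50.4% were higher in t-DHEA livers by sign. The medians of the activators and of the repressors are the single values of Clock and of Per1, whose groups overlapped. The study called a gene by its raw p-value (under 0.05) together with a fold-change of more than 1.2. With these criteria in the quasi-likelihood test of edgeR, 3 of the 8 members were called, Per2 and Per3 as higher and Arntl as lower, beside 4.95% of all genes tested. These were the 3 members whose groups did not overlap, as was the case for 10.1% of all genes tested, 4.67% higher and 5.42% lower in t-DHEA livers. The members were chosen on this contrast, so nothing is read from these counts. After Benjamini-Hochberg adjustment edgeR called 0 genes, members included, where 634 had a raw p-value under 0.05; DESeq2 called 24 genes after adjustment. From here the level of a gene is given in CPM, its counts relative to the library total. Unless stated otherwise, CPM carry the trimmed mean of M-values (TMM) scaling. Values are listed for rats 1, 2 and 3 of a group in that order.

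**Figure D1:**
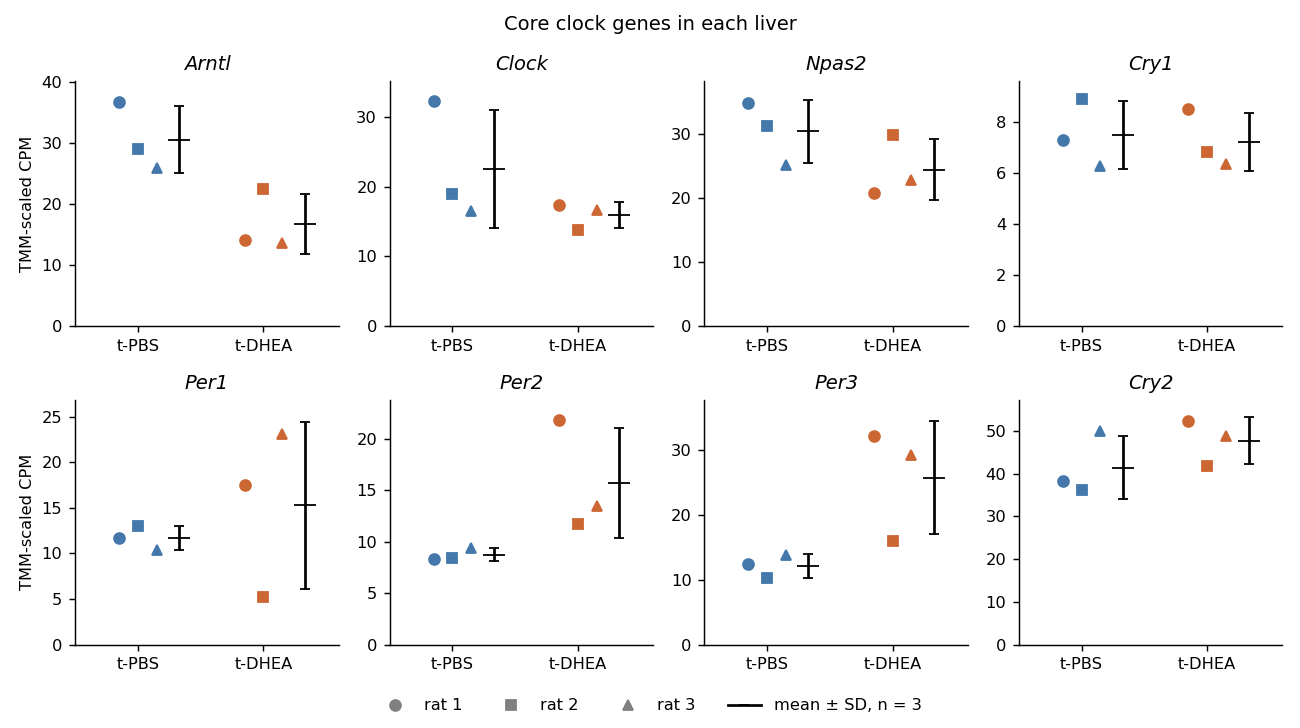
Each panel plots TMM-scaled CPM (vertical axis, from 0) of a core clock gene in the 3 t-PBS and 3 t-DHEA livers, with the symbol giving the rat number and the bar the mean ± SD. Arntl is lower and Per2 and Per3 are higher in every t-DHEA liver than in every t-PBS liver, and t-DHEA rat 2 (square) is the t-DHEA liver nearest to the t-PBS values for these 3 genes.

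Arntl (chromosome 1 of Rnor_6.0, 178039063 to 178137465) encodes the activator without which the loop does not run. The t-PBS livers expressed it at 36.6, 29.0 and 25.9 CPM, the t-DHEA livers at 14.1, 22.4 and 13.7 CPM. The groups did not overlap: all t-DHEA livers were lower, rat 2 being the closest to the t-PBS range. The means were 30.5 ± 5.50 and 16.7 ± 4.94 CPM (SD, n = 3), a log2 fold change of -0.87 (standard error, SE, 0.21). Omitting single livers moved it between -1.14 (t-DHEA rat 2 omitted) and -0.71 (t-PBS rat 1 omitted).

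Clock (chromosome 14, 34446616 to 34502218), the partner of Arntl, had 32.2, 18.9 and 16.5 CPM in the t-PBS group, and 17.3, 13.8 and 16.6 CPM in the t-DHEA group. The groups overlapped, and the t-PBS mean was carried by rat 1. The log2 fold change was -0.51 (SE 0.24), and -0.16 without t-PBS rat 1. Npas2 (chromosome 9, 45901741 to 46081880), which can take the place of Clock, had 34.9, 31.2 and 25.2 CPM in the t-PBS group, and 20.8, 29.8 and 22.8 CPM in the t-DHEA group. Only t-DHEA rat 2 lay within the t-PBS range, and the log2 fold change was -0.31 (SE 0.17). Npas2 followed Arntl in the order of the t-PBS livers, with rat 1 highest and rat 3 lowest, and in that t-DHEA rat 2 was the highest of its group. The FPKM ratio of Npas2 to Arntl was lower in t-PBS livers, at 0.696 ± 0.0460, than in t-DHEA livers, at 1.04 ± 0.120 (SD, n = 3), without overlap. This ratio draws on the contrast of Arntl, on which the members were chosen, and is no further result.

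Among the repressors, Per3 (chromosome 5, 168086998 to 168123395) had the largest difference. The t-PBS livers expressed it at 12.4, 10.2 and 13.8 CPM, the t-DHEA livers at 32.3, 15.9 and 29.3 CPM. The groups did not overlap, although t-DHEA rat 2 was near the highest t-PBS liver. The means were 12.1 ± 1.79 and 25.8 ± 8.70 CPM (SD, n = 3), with a log2 fold change of 1.09 (SE 0.25), or 2.12-fold. Per2 (chromosome 9, 98555169 to 98597359), whose loss shortens or abolishes rhythms in mice, had 8.33, 8.40 and 9.43 CPM in the t-PBS group, and 21.8, 11.7 and 13.5 CPM in the t-DHEA group. The t-PBS livers were close together and below every t-DHEA liver, of which rat 1 was far above the others. The log2 fold change of Per2 was 0.84 (SE 0.22), and 0.53 without t-DHEA rat 1.

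Per1 (chromosome 10, 55687050 to 55695994), the Per gene that responds most readily to glucocorticoids and other acute signals, was the least even. Its t-PBS values were 11.7, 13.0 and 10.3 CPM, and its t-DHEA values 17.5, 5.23 and 23.1 CPM. The t-DHEA livers lay on both sides of the t-PBS livers, since t-DHEA rat 2 was the lowest and rats 1 and 3 the highest of all 6. Its log2 fold change of 0.38 had an SE of 0.42, and changed sign to -0.05 without t-DHEA rat 3, while it was 0.80 without t-DHEA rat 2.

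The cryptochromes, which carry most of the repression by the complex, differed least. Cry1 (chromosome 7, 24534615 to 24634097) had 7.28, 8.91 and 6.26 CPM in the t-PBS group, and 8.50, 6.80 and 6.33 CPM in the t-DHEA group. All t-DHEA livers lay within the t-PBS range, and the log2 fold change of -0.06 (SE 0.18) turned to 0.09 without t-PBS rat 2 and to 0.03 without t-DHEA rat 3. Cry2 (chromosome 3, 81314149 to 81344110) had 38.3, 36.1 and 50.003 CPM in the t-PBS group, and 52.5, 41.7 and 48.9 CPM in the t-DHEA group. The ranges overlapped through t-PBS rat 3, and the log2 fold change was 0.20 (SE 0.15), which became 0.36, and was called, when t-PBS rat 3 was omitted, and 0.11 when t-PBS rat 2 was.

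**Figure D2:**
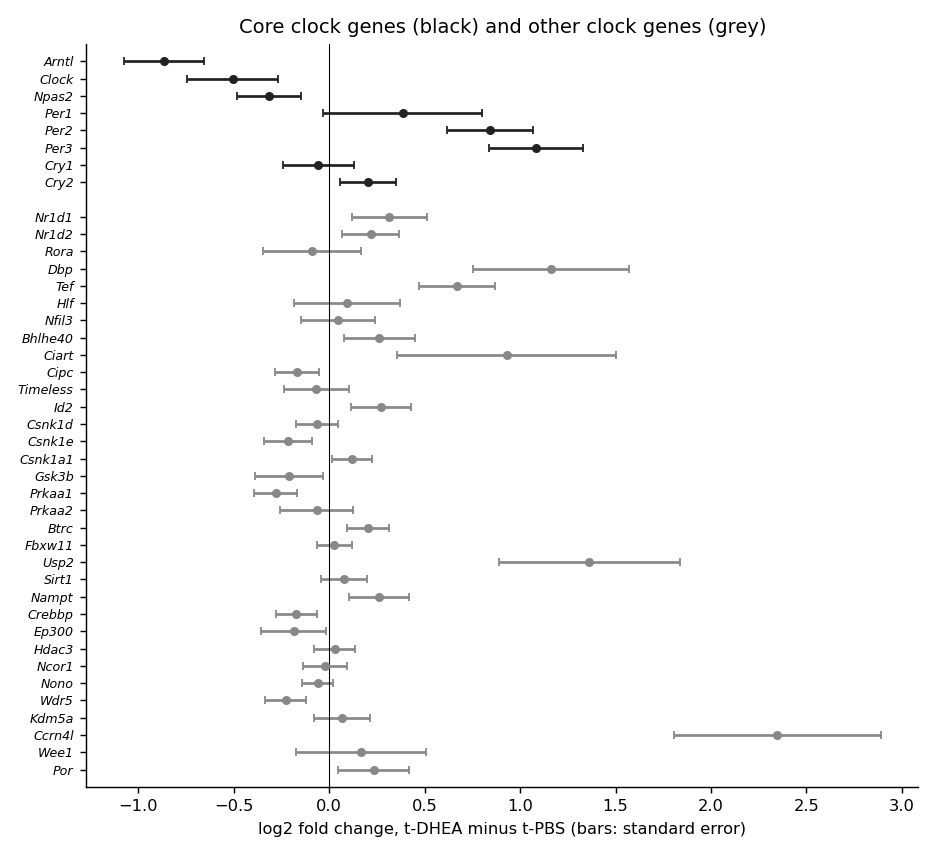
The horizontal axis is the log2 fold change of t-DHEA minus t-PBS livers in edgeR, with bars of 1 standard error; the 8 core clock genes are in black and other tested clock genes, with the outputs Ccrn4l, Wee1 and Por, in grey. The activators lie left of 0, Per2 and Per3 are the furthest right of the core genes, and among the other clock genes Dbp, Usp2 and Ccrn4l lie furthest right.

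Ratios of a repressor to Arntl within a liver combine both differences. The FPKM ratio of Per3 to Arntl was 0.201, 0.210 and 0.317 in t-PBS livers, against 1.36, 0.422 and 1.27 in t-DHEA livers. No t-DHEA liver reached down to the t-PBS values. For Per2 to Arntl the ratio was 0.151 ± 0.0350 in t-PBS and 0.524 ± 0.263 in t-DHEA livers (SD, n = 3), again without overlap. That the ratios of Per2 and Per3 separated the groups follows from the separation of Arntl, Per2 and Per3 themselves, and is no further result. For Per1 to Arntl the groups overlapped, because t-DHEA rat 2, at 0.171, was below all t-PBS livers, whereas t-DHEA rats 1 and 3 were at 0.910 and 1.24. The summed FPKM of the 5 repressors per FPKM of the 3 activators was 0.799, 0.994 and 1.33 in t-PBS livers, against 2.70, 1.22 and 2.45 in t-DHEA livers. On this sum t-DHEA rat 2 fell inside the t-PBS range and the other 2 t-DHEA livers lay above it.

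**Figure D3:**
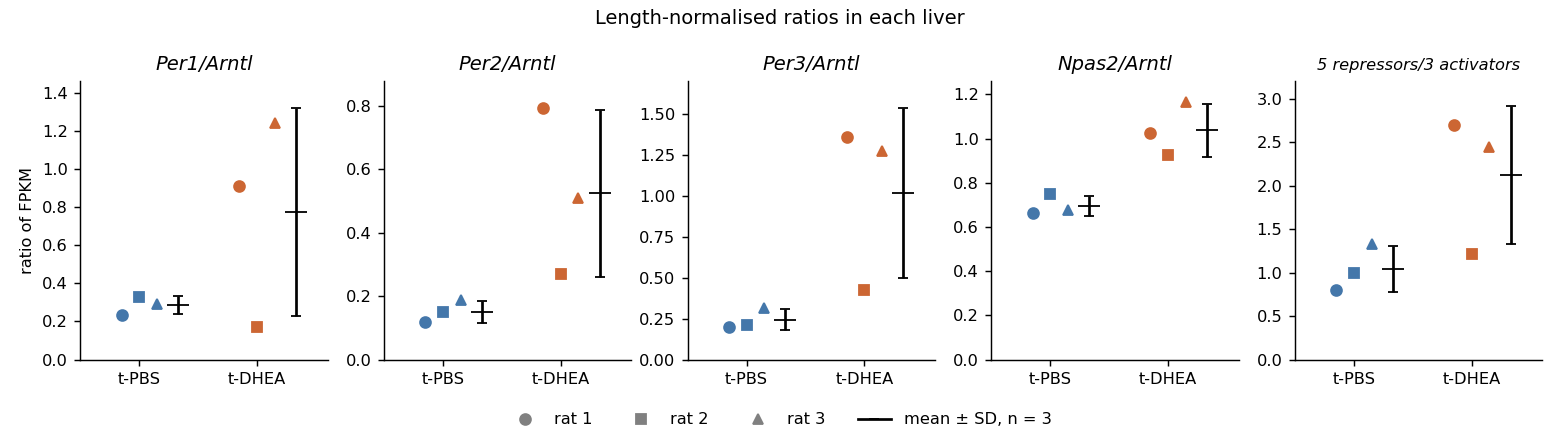
Each panel plots a ratio of FPKM values (vertical axis, from 0) per liver, for single genes over Arntl and for the 5 repressors over the 3 activators; symbols give the rat number and bars the mean ± SD of 3 livers. In t-DHEA rats 1 and 3 the repressors were at 2.70 and 2.45 times the activators, against 1.22 in t-DHEA rat 2 and at most 1.33 in t-PBS livers.

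The spread of the members between livers of the same group was measured as the SD of log2 CPM after the group means were taken off, which does not use the difference between the groups. It was 0.80 for Per1, 0.42 for Per3, 0.38 for Clock, 0.33 for Per2 and Arntl, 0.25 for Npas2, 0.23 for Cry1 and 0.21 for Cry2, against a median of 0.19 over all genes tested. All 8 members were thus above that median, and 97.9% of genes tested varied less than Per1, 87.3% less than Per3 and 57.8% less than Cry2. Among the 5558 genes at the level of the members (between the mean CPM of Cry1 and that of Cry2), 99.2% varied less than Per1 and 72.4% less than Cry2. This SD pools groups of unequal spread. As a percentage of the mean CPM, the SD was 11.3% in t-PBS and 59.8% in t-DHEA livers for Per1. It was 7.04% and 34.2% for Per2, and 14.8% and 33.7% for Per3. For Clock it was larger in t-PBS livers, at 37.6% against 11.9%, as it was for Cry1 and Cry2.

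Several members deviated together in some livers. How many of all genes tested had the same liver as the extreme of their group was not counted, so nothing particular to the clock is read from this. Of all pairs of libraries, t-DHEA rat 2 and t-PBS rat 2 differed most (chi-square divided by its degrees of freedom 41.8). In the t-DHEA group, rat 2 lay above its group mean by 0.46 (log2 CPM) for Arntl and by 0.30 for Npas2. Its deviations for Per1, Per2, Per3 and Cry2 were negative, at -1.27, -0.36, -0.63 and -0.19 (log2 CPM). Within t-DHEA, therefore, the liver with the most Arntl and Npas2 had the least of all 3 Per genes and of Cry2. Clock did not follow Arntl there, as rat 2 had the least of it too. Within t-PBS, rat 1 was highest for Arntl, Npas2 and Clock, by 0.28, 0.21 and 0.58, and rat 3 was lowest for these and highest for Per2, Per3 and Cry2, by 0.11, 0.19 and 0.28. Per1 did not follow the other Per genes in t-PBS, where rat 3 had the least of it. Cry1 did not follow Cry2: it was lowest in rat 3 of either group, at deviations of -0.24 in t-PBS and -0.17 in t-DHEA.

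**Figure D4:**
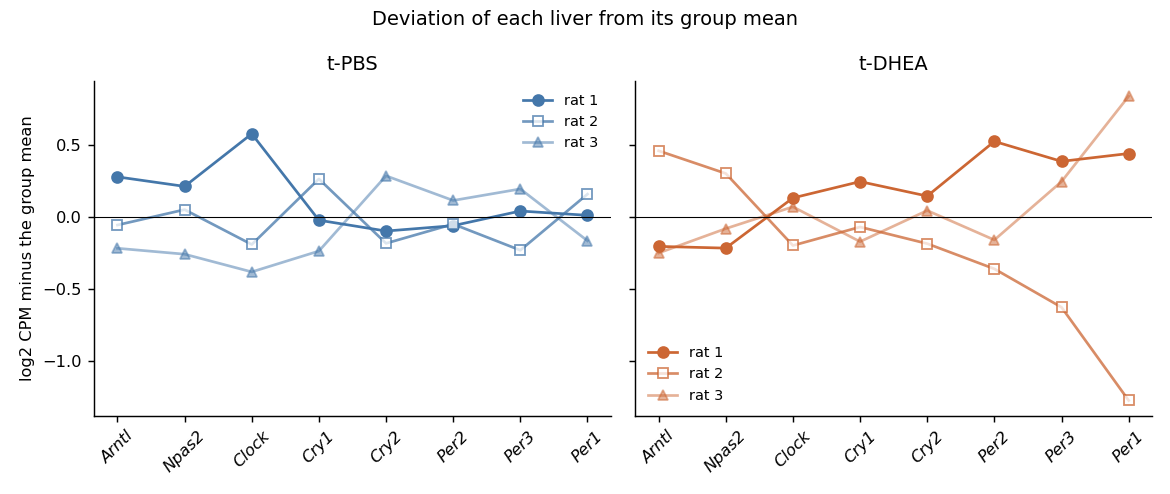
The vertical axis is the log2 CPM of each liver minus the mean of its group, for the 8 core clock genes along the horizontal axis; lines join the values of 1 rat and carry no order in time. In the t-DHEA panel rat 2 runs from 0.46 for Arntl to -1.27 for Per1, crossing the other 2 rats.

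Leaving out t-DHEA rat 2 moved the log2 fold change to -1.14 for Arntl, -0.48 for Npas2, 1.02 for Per2, 1.34 for Per3 and 0.80 for Per1, all further from 0, and to -0.41 for Clock, which was closer to it. The median of the repressors was 0.80 without that liver.

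Markers of liver cell types were summed per liver, in CPM without TMM scaling, to see what else varied. The 8 hepatocyte markers, with albumin among them at 10.6% to 13.5% of counts, made up 176649 to 194146 CPM, and none of the markers in the table was at 0 in all livers. Their ranges overlapped between the groups, as did those of 6 macrophage, 4 endothelial and 5 lymphocyte markers. The 5 red blood cell markers were higher in t-DHEA livers, at 298 to 583 CPM against 185 to 292 CPM. The 6 stellate cell and fibroblast markers were lower, at 371 to 446 CPM against 461 to 643 CPM. The 5 cholangiocyte markers were at 8.94 to 15.6 against 18.2 to 23.7 CPM, and the 5 mesothelial markers at 1.55 to 11.2 against 23.0 to 27.0 CPM. t-DHEA rat 2 had the highest red blood cell sum and the lowest sums of the other 3 lists. Their part in the differences of the clock genes was not tested. In whole liver, fewer cells of a type and less RNA per cell cannot be told apart.

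The other genes of the clock were taken from 5 lists of 36 genes, of which 35 were in the table (Fbxl21 was not matched by name) and 32 were tested. By the same criteria in edgeR, 3 of the 32 were called higher and 1 lower in t-DHEA livers, against 1.97% higher and 2.98% lower of all genes tested. The median log2 fold change was 0.03, and 0 passed the adjustment of edgeR. The number called was 7 when t-DHEA rat 2 was omitted, 2 when t-DHEA rat 1 was, and 1 when t-PBS rat 1 was. Over all genes tested, the same fits called 587, 719 and 537. Counts within a single list rest on few genes and are not read as results.

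The D-box factors held 2 of the 4 calls. Dbp, an activator of Per genes and of many liver enzymes, had 31.9, 29.1 and 62.4 CPM in the t-PBS group, and 111.6, 41.7 and 122.9 CPM in the t-DHEA group. The groups overlapped because t-DHEA rat 2 lay below t-PBS rat 3. The log2 fold change was 1.16 (SE 0.41), at an adjusted p of 0.909 in edgeR, and the call was lost without t-PBS rat 1, t-PBS rat 2, t-DHEA rat 1 or t-DHEA rat 3. Tef, of the same family, had 33.8, 29.2 and 41.0 CPM in the t-PBS group, and 67.0, 39.8 and 58.8 CPM in the t-DHEA group. Again only t-DHEA rat 2 lay within the t-PBS range. Tef had a log2 fold change of 0.67 (SE 0.20), at an adjusted p of 0.815 in edgeR, and it was called whichever liver was omitted. Hlf, the remaining activator of the family, and Nfil3, which represses through the same element, had log2 fold changes of 0.09 (SE 0.28) and 0.05 (SE 0.19).

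**Figure D5:**
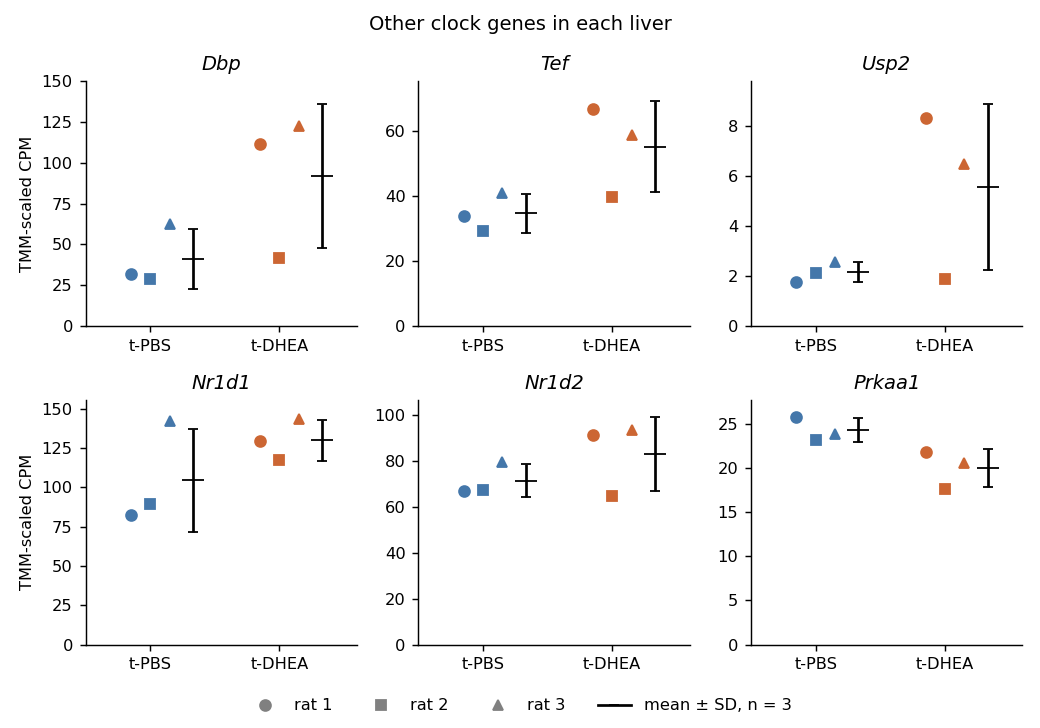
TMM-scaled CPM (vertical axis, from 0) of 6 other clock genes in each liver, with the symbol giving the rat number and the bar the mean ± SD of 3 livers. For Dbp, Tef and Usp2 t-DHEA rats 1 and 3 lie above all t-PBS livers, and t-DHEA rat 2 lies among them.

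None of the nuclear receptors of the second loop was called. Nr1d1, which represses Arntl and is itself switched on by the activators, had 82.2, 89.1 and 142.2 CPM in the t-PBS group, and 129.3, 117.3 and 143.4 CPM in the t-DHEA group. Its groups overlapped through t-PBS rat 3 alone. The log2 fold change of Nr1d1 was 0.32 (SE 0.20), and that of Nr1d2 was 0.22 (SE 0.15), both at an adjusted p of 0.986 in edgeR. Nr1d2 was called when t-DHEA rat 2 was omitted, at a log2 fold change of 0.37, and Nr1d1 when t-PBS rat 3 was omitted, at 0.60. Rora, which activates Arntl, had a log2 fold change of -0.09 (SE 0.26). Rorb had no count in any liver, which allows up to 3 counts or 0.210 to 0.243 CPM (without TMM scaling) and covers counting error only.

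Of the kinases, ubiquitin ligases and related enzymes that set the life of PER and CRY proteins, Usp2 and Prkaa1 were called among 10 tested. Of all genes tested, 4.95% were called. Usp2, a deubiquitinase of clock proteins, had 1.75, 2.14 and 2.56 CPM in the t-PBS group, and 8.33, 1.87 and 6.48 CPM in the t-DHEA group. t-DHEA rat 2 was thus within the t-PBS range and the other 2 were above it. Usp2 had a log2 fold change of 1.36 (SE 0.47) at an adjusted p of 0.902 in edgeR, and its call was lost without t-PBS rat 1, t-DHEA rat 1 or t-DHEA rat 3. Prkaa1, a catalytic subunit of the energy sensor AMPK, which marks CRY1 for degradation, had 24.3 ± 1.34 CPM in t-PBS and 20.1 ± 2.13 CPM in t-DHEA livers (SD, n = 3), without overlap. Its log2 fold change was -0.28 (SE 0.11), at an adjusted p of 0.957 in edgeR, and the call was lost without t-PBS rat 1, t-PBS rat 3, t-DHEA rat 2 or t-DHEA rat 3. The casein kinases Csnk1d and Csnk1e, which phosphorylate PER, had log2 fold changes of -0.06 (SE 0.11) and -0.22 (SE 0.13). Csnk1d changed sign to 0.02 without t-DHEA rat 2, and Csnk1e was called at -0.32 without t-DHEA rat 3.

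No modulator of the activators and no coregulator was called, among 5 and 9 genes tested, where 4.95% of all genes tested were called. Omitting t-DHEA rat 2 added calls of Bhlhe40, Ciart and the coregulator Nampt, and omitting t-DHEA rat 3 one of Id2. Bhlhe40, a repressor that competes for E-boxes, had a log2 fold change of 0.26 (SE 0.19), which became 0.42 without t-DHEA rat 2 and 0.10 without t-DHEA rat 3. Ciart, a repressor of the activator pair, had one of 0.93 (SE 0.57), with 0.656 ± 0.251 CPM in t-PBS and 1.27 ± 0.775 CPM in t-DHEA livers (SD, n = 3). Bhlhe41, the relative of Bhlhe40, was below the filter for low counts, at 0.560 ± 0.0438 CPM in t-PBS and 0.264 ± 0.166 CPM in t-DHEA livers (SD, n = 3). Among the 3 output genes listed, Ccrn4l (nocturnin) had 1.47, 2.21 and 0.830 CPM in the t-PBS group, and 6.93, 2.99 and 13.2 CPM in the t-DHEA group, without overlap. The log2 fold change was 2.35 (SE 0.54), at an adjusted p of 0.796 in edgeR.

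Genes with a pattern most like each member were ranked by Pearson's r of log2 CPM over the 6 livers, among 8996 other genes with a mean of at least 5 CPM. The values are a description: they include the difference between the groups on which the members were chosen, each rests on 6 livers, and between 0.442% (Clock) and 0.934% (Arntl) of all 12209 other genes tested had an r above 0.9 with a member. For Per3 the first was Tef (r = 0.985), before Atg4c (0.979) and Hnrnpm (0.973). Per3 and Tef placed the livers in the same order within each group, t-PBS rats 3, 1 and 2 and t-DHEA rats 1, 3 and 2, from high to low. For Arntl the first were Rap1a (0.992), Cdc25a (0.989) and Tjap1 (0.985). For Npas2 they were Spry1 (0.992), Ubd (0.989) and Map3k11 (0.988), and for Clock they were Ncald (0.987), Taf11 (0.978) and Crtc2 (0.973). Per2 was most like Zfp788 (0.991), Smc3 (0.987) and Ift88 (0.987), and Per1 most like the unnamed AABR07072761.1 (0.978), Nlrp12 (0.978) and Gnai3 (0.974). Cry1 was most like Socs4 (0.997), Fam179b (0.984) and Klhl9 (0.974), and Cry2 most like Ankrd46 (0.989), Dsc2 (0.989) and Ddb1 (0.986). Tef was the sole gene of the clock lists among these 24. In the ranking over all 12209 genes, Per2 was number 55 for Per3, and Arntl was number 30 from the other end, with an r of -0.94.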

How the data were processed

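Total RNA was extracted from 3 t-PBS and 3 t-DHEA rat livers, and paired-end mRNA-seq libraries were sequenced. The authors filtered reads with Seqtk, mapped them to Rnor_6.0 with HISAT2 2.0.4, counted fragments per gene with StringTie 1.3.0, and deposited raw counts and the FPKM values normalised from them; the annotation release and strandedness are not given in the sources used here. No other gene of the table overlapped a member's locus. Each p-value and SE rests on 3 rats per group, with dispersions estimated across genes. The rats of a group shared a donor pool, and the paper housed rats in shared cages. Variation between donor pools or between cages is therefore not measured by these p-values and SEs.

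From the counts, edgeR 4.0.16 (R 4.3.3) gave TMM factors, dispersions and a two-sided quasi-likelihood test on the 12210 genes that passed its filter, with Benjamini-Hochberg adjustment over them. Calls needed a raw p-value under 0.05 and a fold-change of more than 1.2. SEs came from the test statistic. The study applied edgeR to FPKM; here it was applied to the counts. All pairs of libraries differed by more than sampling noise (chi-square divided by its degrees of freedom at least 18.0).

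The members and lists were chosen with earlier results of these data known. Named genes were the members, the other clock genes called, Nr1d1, Nr1d2, Rora, Bhlhe40, Bhlhe41, Csnk1d and Csnk1e in any case, and the 3 genes most like each member; Hlf, Nfil3, Ciart, Id2, Nampt, Rorb and the E-box holders were added after their values were seen. Some genes of this rule are not reported here. Alternatives were DESeq2 1.42.0, RLE factors, no filter, a minimum of 10 counts per liver, limma 3.58.1 on log2(FPKM + 0.1) and log2(FPKM + 1), replicate number as a block, and leaving out each liver.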

Additional observations from a re-analysis of the deposited data

How the results depend on the processing

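Over all genes tested, 604 were called; a rule on the adjusted p-value left 0 in edgeR (634 had a raw p-value under 0.05, and DESeq2 gave 24 after adjustment), and a fold-change above 2 left 100. Leaving out 1 liver gave 509 to 719 calls over all genes, 3 to 6 among the members (6, with Clock, Npas2 and Cry2 added, when t-PBS rat 3 was omitted; 5, with Npas2 and Per1 added, when t-DHEA rat 2 was), and 1 to 7 among the other clock genes. The median of the activators ranged from -0.69, when t-PBS rat 3 was omitted, to -0.20, when t-PBS rat 1 was. That of the repressors ranged from 0.18, when t-DHEA rat 3 was omitted, to 0.80, when t-DHEA rat 2 was. DESeq2, no filter and the block called Clock as well as Arntl, Per2 and Per3. With limma on log2(FPKM + 0.1) and log2(FPKM + 1) the median of the repressors was 0.17 and 0.16, Usp2 was not called, and the calls over all genes were 165 higher with 448 lower and 147 higher with 390 lower, beside 240 higher with 364 lower in edgeR. DESeq2 did not call Prkaa1. Per1 at -0.05 and Cry1 at 0.09 and 0.03 changed sign when 1 liver was omitted, none of them called. Calls of the members are on the contrast that chose them and support nothing. The causes were not tested.

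The replicate numbers showed no pairing of the livers over all genes tested. Deviations of same-numbered livers correlated at -0.06 for each number, and 0 of the 6 livers correlated best with its own number. A pairing that touches few genes would not be seen in this way, and the sources used here do not say what the numbers mean. With the number as a block, 539 genes were called, with 4 members and 5 of the other clock genes, Nr1d1 being added; the medians were -0.46 for the activators and 0.22 for the repressors. With 3 livers per group the SE of a member's log2 fold change ran from 0.15 for Cry2 to 0.42 for Per1. This limits what could be seen for Per1, and for differences as small as those of Cry1 and Cry2.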
